A study of Mus musculus with 7 samples.

Results

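The 17-beta-hydroxysteroid dehydrogenases, together with *Akr1c18* and *Srd5a1*, were followed in the ovarian stroma of mice lacking the progesterone receptor (PGR). The group was listed by name, with earlier results of these data known. It held 10 genes, *Hsd17b1*, *Hsd17b2*, *Hsd17b4*, *Hsd17b7*, *Hsd17b8*, *Hsd17b10*, *Hsd17b11*, *Hsd17b12*, *Akr1c18* and *Srd5a1*, out of 52230 genes with transcripts in the data. All 10 passed the filter on low counts, as did 19233 genes in all. RNA-seq was performed on 4 WT (PGR +/+) and 3 KO (PGR null) libraries of the PRKO line (Pgrtm1Bwo), labelled WT1 to WT4 and KO2 to KO4. Females at 21 to 27 days old were given 5 IU of PMSG (equine chorionic gonadotropin) and, after 44 h, 5 IU of hCG, which stands in for the ovulatory LH surge, and ovaries were collected 8 h post-hCG in both genotypes. Follicles were punctured to remove granulosa cells, and the remaining tissue is referred to as stroma. The receptor is lost in the whole body in this line, so stroma and granulosa cells of a KO ovary both lack it. Each library held RNA pooled from 3 mice, so the spread between libraries is that between pools.

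Most of these enzymes can interconvert keto and hydroxy groups on steroids, which helps set how much of an ovarian steroid is in its potent form. Several members do much of their work elsewhere, in cholesterol synthesis, fatty acid elongation, peroxisomal fatty acid breakdown, mitochondrial metabolism or on lipid droplets. In the rodent ovary the group is best known for *Hsd17b1* in granulosa cells, *Hsd17b7* in luteal cells, and *Akr1c18*, whose product inactivates progesterone as the corpus luteum regresses.

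Total expected counts ranged from 47372446 to 63416875 per library. *Pgr* read 19.5, 31.0, 21.5 and 16.8 CPM (read counts scaled to library size with TMM factors) in WT1 to WT4 and 6.13, 6.52 and 7.56 CPM in KO2 to KO4, so KO stroma kept 30.3% of the WT level and the groups did not overlap. Its log2 fold change was -1.72 (SE 0.202), with an adjusted p of 0.0544 in edgeR, which did not call it, and 1.2e-14 in DESeq2. Granulosa cell markers were still present, with a summed level of 2520 to 3549.7 TPM (a level per transcript length) in WT and 3074 to 4074 TPM in KO libraries, and none of the 10 markers at 0. Theca cell markers summed to 7234 to 9422 TPM in WT and 6539 to 8171 TPM in KO, and all 7 had a log2 fold change below 0 with none at an unadjusted p under 0.05. Smooth muscle markers were lower in KO (1044 to 1378 TPM) than in WT (1439 to 1718 TPM) without overlap. In such bulk tissue, fewer cells of a type and less RNA per cell cannot be told apart.

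Against this setting, edgeR's quasi-likelihood test called 0 of the 10 genes between KO and WT (a call needs a log2 fold change of 0.5 or more in size and an adjusted p no higher than 0.05), where it called 0.0104% of all genes tested, namely *Tcf23* and *Sorl1*. DESeq2 called 1 member, *Hsd17b11*, against 0.873% of the 16618 genes to which it gave an adjusted p, and limma-voom called 0. At an unadjusted p under 0.05 in edgeR, 4 members were lower in KO (*Hsd17b7*, *Hsd17b11*, *Hsd17b2* and *Hsd17b12*) and 0 were higher, where 5.1% of all genes were lower by that rule. The same 4 members had every KO library below every WT library, which 5.12% of all genes had. As the members were listed with earlier results of these data known, these shares are no test of the group. In all, 7 members had a log2 fold change below 0 and 3 above it, with a median of -0.13 over the 10, beside 50.3% of all genes below 0 and a median of 0.0. With 4 and 3 libraries, the smallest p that the two-sided exact permutation test of 1 gene can give is 0.0286.

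**Figure D1:**
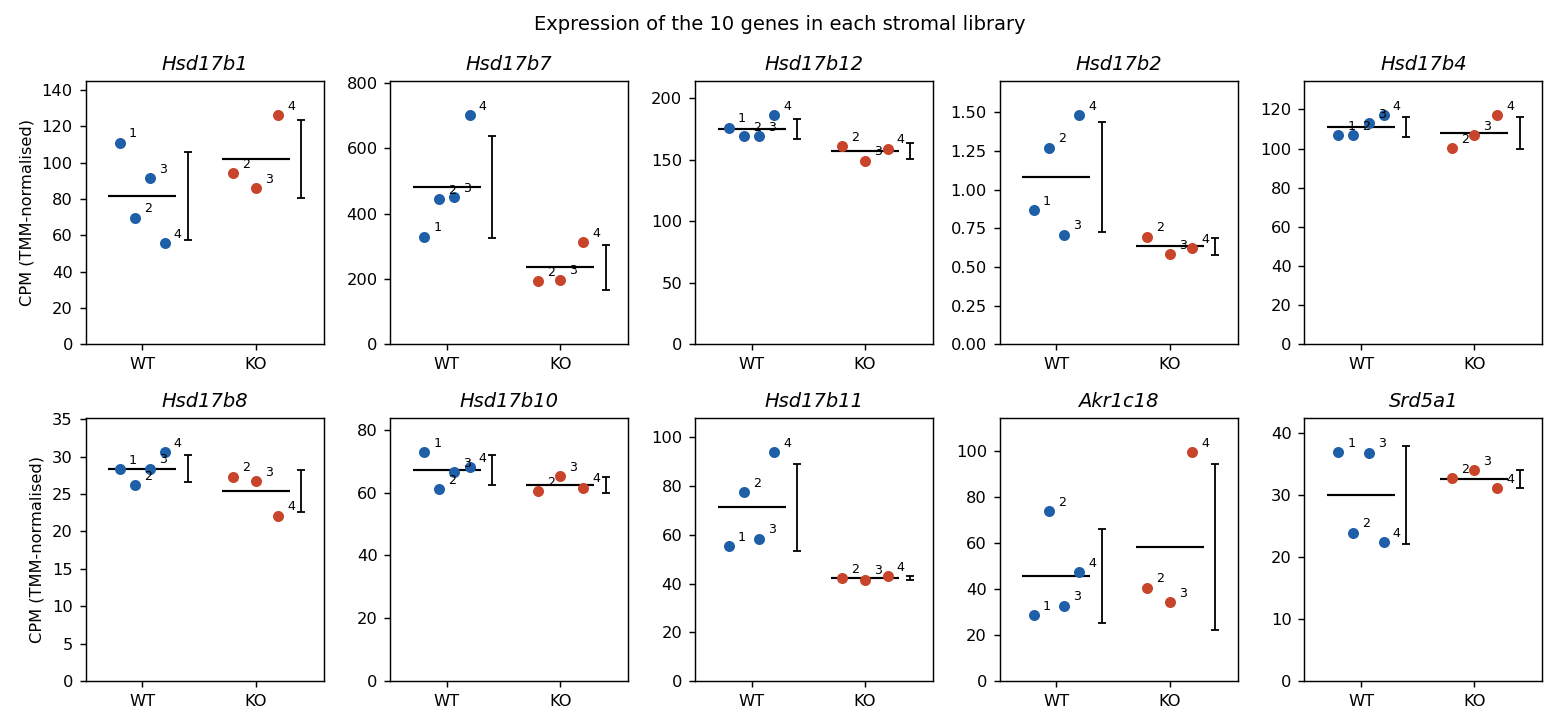
CPM of each of the 10 genes in each library (points, numbered by replicate), with the mean of 4 WT (blue) or 3 KO (red) libraries as a line and the SD as a bar. The KO points of *Hsd17b7*, *Hsd17b12*, *Hsd17b2* and *Hsd17b11* all lie below their WT points, and the other 6 genes overlap.

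The sequences upstream of 3 members that lay lower in every KO library are shown so that the control regions of these genes can be compared. Each runs 5′ to 3′ up to the base before the start of the main transcript, from GRCm39, and capitals mark matches, on either strand, to the letters searched. *Hsd17b7* (minus strand, chr1:169796814-169797063) and *Hsd17b12* (minus strand, chr2:93988420-93988669) are given over 250 bases. For *Hsd17b11* (minus strand) the bases nearest the start lie in an exon of another transcript of the gene, and the 133 bases before them, chr5:104169903-104170035, are given.
Hsd17b7: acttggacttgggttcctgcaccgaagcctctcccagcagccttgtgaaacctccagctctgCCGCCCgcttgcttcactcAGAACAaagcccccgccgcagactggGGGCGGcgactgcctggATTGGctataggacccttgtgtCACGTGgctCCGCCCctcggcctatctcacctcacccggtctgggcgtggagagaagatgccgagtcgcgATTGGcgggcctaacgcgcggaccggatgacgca
Hsd17b12: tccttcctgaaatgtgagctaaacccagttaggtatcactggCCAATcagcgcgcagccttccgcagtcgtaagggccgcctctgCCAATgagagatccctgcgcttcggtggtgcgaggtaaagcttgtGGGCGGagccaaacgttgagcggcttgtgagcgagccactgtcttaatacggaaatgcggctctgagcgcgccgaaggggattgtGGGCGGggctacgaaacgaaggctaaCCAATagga
Hsd17b11: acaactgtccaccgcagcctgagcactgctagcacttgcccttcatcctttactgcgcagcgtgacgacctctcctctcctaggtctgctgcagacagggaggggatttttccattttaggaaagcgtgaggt

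The *Hsd17b7* window held 2 matches to CCAAT, the box bound by NF-Y (34.7% of 15704 promoters of the same length held at least 1), 1 to the E-box CACGTG (6.83%), 3 to the SP1 box GGGCGG (43.2%) and 1 to AGAACA, a short progesterone receptor site (12.4%). The *Hsd17b12* window held 3 matches to CCAAT and 2 to GGGCGG. Over its full 250 bases *Hsd17b11* held 1 match to GGGCGG, which lies in the stretch left out above. None of the 10 windows matched the full progesterone receptor palindrome, which 0.248% of promoters held, nor TCACNCCAC, a sterol regulatory element found in 1.14%. CAAGGTCA, the NR5A site (1.2%), TGACGTCA, the cyclic AMP response element (1.65%), and the PPAR direct repeat of AGGTCA (0.0573%) matched none of the 10 windows either. AGAACA also matched once upstream of *Hsd17b4*, whose level was similar in both genotypes. The NF-Y box also matched 2 times upstream of *Hsd17b8*, and the SP1 box 1 time each upstream of *Hsd17b10*, *Akr1c18* and *Srd5a1*. These genes all overlapped between genotypes, so neither box was particular to the genes lower in KO. *Hsd17b1* and *Hsd17b2* held no match to any motif searched.

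Of the enzymes that make potent steroids, *Hsd17b7* had the largest difference. Its product reduces a keto group during the last steps of cholesterol synthesis and can also reduce estrone to estradiol. The gene (ENSMUSG00000026675.14, GRCm39 chr1:169777093-169796813, minus strand) read 329, 445, 451 and 701 CPM in WT1 to WT4 and 193, 198 and 313 CPM in KO2 to KO4. WT4 stood highest by a wide margin, and KO4 came close to WT1, yet every KO library was below every WT library. KO stroma held 48.8% of the WT level on average, at 235 ± 67.8 CPM (SD, n = 3) beside 482 ± 156 CPM (SD, n = 4). The log2 fold change was -1.04 (SE 0.261, 95% interval -1.63 to -0.44), with an adjusted p of 0.305 in edgeR and 0.115 in DESeq2, and the exact permutation p was 0.0571. Leaving out 1 library at a time gave -1.3 to -0.79, and DESeq2 then called the gene without WT1 (adjusted p = 0.0277) and without KO4 (adjusted p = 0.0159).

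*Hsd17b1* encodes the granulosa cell enzyme that turns estrone into estradiol. The gene (ENSMUSG00000019301.7, chr11:100969181-100972336, plus strand) read 111, 69.6, 91.4 and 55.6 CPM in WT1 to WT4 and 94.0, 86.0 and 126 CPM in KO2 to KO4. The genotypes overlapped, with KO4 highest and WT4 lowest. Means were 81.8 ± 24.2 CPM (SD, n = 4) and 102 ± 21.3 CPM (SD, n = 3), a log2 fold change of 0.32 (SE 0.223, 95% interval -0.19 to 0.83) with an edgeR adjusted p of 0.725. The interval spans differences of either direction.

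The *Hsd17b1* level moved with the granulosa cell markers over the libraries. The mean log2 CPM of the 10 markers was 7.73, 7.19, 7.63 and 7.04 in WT1 to WT4 and 7.26, 7.38 and 7.7 in KO2 to KO4. Pearson's r of *Hsd17b1* with it was 0.89 over 7 libraries, and both values of a library come from the same dissection and depth. Taken relative to that mean, *Hsd17b1* stood at -0.94, -1.07, -1.12 and -1.24 in WT and -0.7, -0.95 and -0.72 in KO on the log2 scale. KO2 and KO4 were above all WT libraries, and KO3 lay just below WT1. The difference was 0.3 (0.25 to 0.38 with 1 library left out), and the two-sided exact permutation p was 0.0857 (0.343 after Benjamini-Hochberg adjustment over 24 such comparisons, chosen after the values were seen). With the marker mean as a covariate in edgeR, the log2 fold change was 0.29 (SE 0.0797) and the adjusted p was 0.261. The part of the markers in the *Hsd17b1* level was not tested beyond this.

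**Figure D2:**
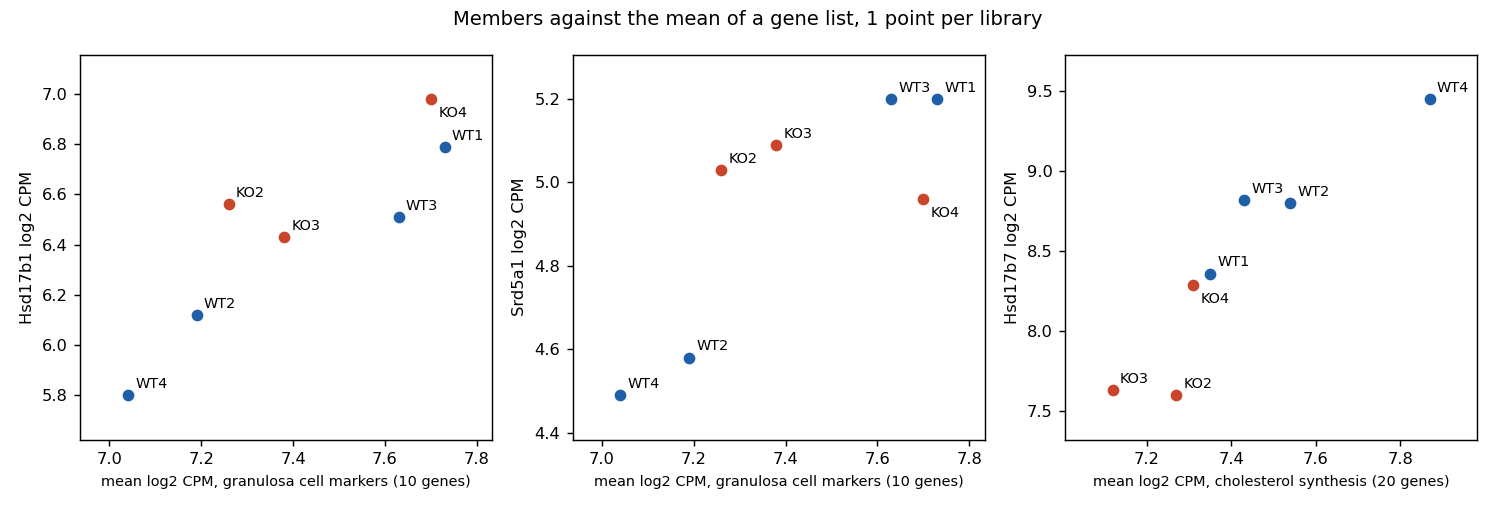
Log2 CPM of *Hsd17b1* and *Srd5a1* against the mean log2 CPM of 10 granulosa cell markers, and of *Hsd17b7* against that of 20 cholesterol synthesis genes, with 1 point per library (WT blue, KO red). *Hsd17b1* and *Srd5a1* increase with the granulosa mean (r = 0.89 and 0.8). *Hsd17b7* increases with the cholesterol synthesis mean (r = 0.93), with KO2 and KO3 lowest.

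*Hsd17b12* encodes the ketoacyl reductase of very long chain fatty acid elongation, and the mouse enzyme also reduces estrone. The gene (ENSMUSG00000027195.12, chr2:93863034-93988419, minus strand) read 176, 169, 169 and 186 CPM in WT1 to WT4 and 161, 149 and 159 CPM in KO2 to KO4. The difference was small but the libraries of each genotype lay close together, and the groups did not overlap. KO stroma held 89.6% of the WT level, with a log2 fold change of -0.16 (SE 0.0587, 95% interval -0.29 to -0.03), an edgeR adjusted p of 0.468 and an exact permutation p of 0.0286, the smallest that this design allows.

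Of the enzymes that lower steroid potency, *Hsd17b2* was the least abundant. It oxidises estradiol to estrone and testosterone to androstenedione. The gene (ENSMUSG00000031844.10, chr8:118428254-118485774, plus strand) had 45, 64, 40 and 92 reads in WT1 to WT4 and 40, 28 and 36 reads in KO2 to KO4, or 0.865, 1.27, 0.709 and 1.48 CPM against 0.695, 0.583 and 0.621 CPM. WT3 lay just above KO2, and the groups did not overlap. The KO mean was 58.6% of WT, with a log2 fold change of -0.77 (SE 0.276, 95% interval -1.4 to -0.14), an edgeR adjusted p of 0.448 and an exact permutation p of 0.0571. At 28 to 92 reads per library, counting error adds to the spread between pools.

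*Hsd17b11* encodes a lipid droplet protein that oxidises androgen metabolites and is found in steroid-making cells. The gene (ENSMUSG00000029311.18, chr5:104137628-104169902, minus strand) read 55.3, 77.5, 58.4 and 94.0 CPM in WT1 to WT4 and 42.2, 41.5 and 43.1 CPM in KO2 to KO4. The KO libraries sat close together, below all WT libraries, and the WT libraries were spread out, with WT4 highest. Means were 71.3 ± 18.0 CPM (SD, n = 4) and 42.3 ± 0.795 CPM (SD, n = 3), so that KO held 59.3% of WT. The log2 fold change was -0.76 (SE 0.17, 95% interval -1.14 to -0.37), with an edgeR adjusted p of 0.245 and a DESeq2 adjusted p of 0.00268, and the exact permutation p was 0.0571. The DESeq2 call was made in 7 of 7 fits that left out 1 library (adjusted p from 8.04e-06 to 0.045), and the edgeR call in 0 of 7.

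*Akr1c18* encodes the reductase that turns progesterone into a weak metabolite, and its rise marks luteal regression. The gene (ENSMUSG00000021214.16, chr13:4182614-4200672, minus strand) read 28.5, 73.9, 32.8 and 47.4 CPM in WT1 to WT4 and 40.6, 34.3 and 99.7 CPM in KO2 to KO4. KO4 and WT2 were high and the other 5 libraries lay between 28.5 and 47.4 CPM, so the genotypes overlapped. The log2 fold change was 0.35 (SE 0.417, 95% interval -0.59 to 1.3), the widest interval of the 10, with an edgeR adjusted p of 0.848, and it was -0.28 without KO4. *Akr1c18* belongs to a cluster of near copies, so reads may be split between them.

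The share of the main transcript was tested for the 4 members with more than 1 transcript at 5% or more of their mean TPM. That of *Akr1c18* took 95.6%, 95.4%, 93.5% and 94.7% of the gene's TPM in WT1 to WT4 and 89.6%, 91.2% and 93.2% in KO2 to KO4, without overlap. The exact permutation p was 0.0286 and the adjusted p over the 4 members tested was 0.114. Of the other 3, the main transcript of *Hsd17b7* took 92.4% in WT and 90.1% in KO (p = 0.257 by exact permutation), that of *Hsd17b8* took 53.9% and 56.1% (exact p = 0.571) and that of *Srd5a1* took 95.9% and 83.0% (exact p = 0.114). By reads instead of TPM, the *Srd5a1* share was 98.9% and 95.5%, and the TPM difference of -12.9 percentage points became -8.24 without KO4 and -16.8 without WT1. A lesser transcript of *Hsd17b8* took 12.8%, 8.33%, 6.23% and 4.47% of its TPM in WT1 to WT4 and 0.0%, 0.0% and 2.04% in KO2 to KO4, and another took 0.59% in WT and 3.55% in KO on average, both without overlap. They were picked after their values were seen and were not tested. The other 6 members had 1 transcript at 5% or more of their mean TPM over all 7 libraries. A lesser transcript of *Hsd17b12* was above this in KO2 (8.84%) and KO3 (8.39%) but not in KO4 (0.944%), and the main one took 98.4% in WT and 93.9% in KO.

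*Srd5a1* encodes the reductase that turns testosterone into dihydrotestosterone and also acts on progesterone. The gene (ENSMUSG00000021594.13, chr13:69721568-69759750, minus strand) read 36.9, 23.9, 36.8 and 22.4 CPM in WT1 to WT4 and 32.7, 34.0 and 31.1 CPM in KO2 to KO4. The KO libraries lay between a high and a low pair of WT libraries, with a log2 fold change of 0.12 (SE 0.18, 95% interval -0.29 to 0.53) and an edgeR adjusted p of 0.89. Its r with the granulosa marker mean was 0.8 over 7 libraries. It overlaps *Nsun2* on the opposite strand.

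The other 3 members have mainly non-steroid roles, and their differences were small. *Hsd17b4*, the peroxisomal multifunctional enzyme of fatty acid breakdown, read 107, 107, 113 and 117 CPM in WT and 100.3, 107 and 117 CPM in KO (log2 fold change -0.04, 95% interval -0.19 to 0.11, and 0.01 without KO2). *Hsd17b10*, a subunit of mitochondrial RNase P that also acts in isoleucine breakdown, read 72.9, 61.0, 66.5 and 68.1 CPM in WT and 60.5, 65.2 and 61.5 CPM in KO (log2 fold change -0.11, 95% interval -0.26 to 0.05). *Hsd17b8*, which with *Cbr4* forms the reductase of mitochondrial fatty acid synthesis, read 28.3, 26.2, 28.4 and 30.6 CPM in WT and 27.3, 26.7 and 22.1 CPM in KO (log2 fold change -0.16, 95% interval -0.36 to 0.04). All 3 overlapped between genotypes, and the edgeR adjusted p lay between 0.633 and 0.908. The 3 genes lie on chromosomes 18, X and 17.

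**Figure D3:**
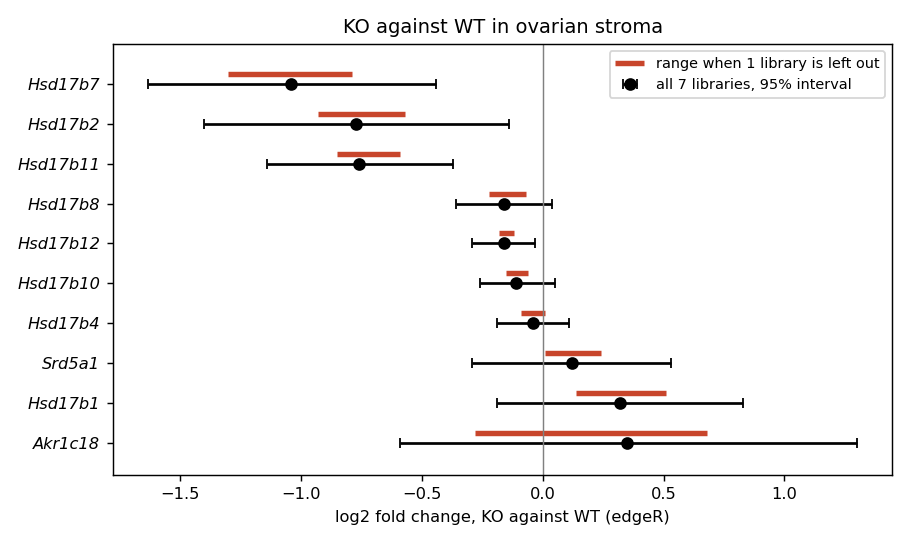
Log2 fold change of KO against WT in edgeR for the 10 genes (points, all 7 libraries) with 95% intervals, and the range of the estimate when 1 library is left out (red bars). *Hsd17b7*, *Hsd17b2*, *Hsd17b11* and *Hsd17b12* have intervals below 0, and the red bars of *Akr1c18* and *Hsd17b4* cross 0.

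Per length, *Hsd17b7* was the most abundant member in WT stroma at 171 ± 61.4 TPM (SD, n = 4), followed by *Hsd17b12* at 150 ± 8.77 TPM and *Hsd17b10* at 127 ± 5.4 TPM. *Hsd17b1* followed at 104 ± 26.6 TPM, then *Hsd17b8* at 73.4 ± 6.51 TPM, *Akr1c18* at 67.3 ± 32.0 TPM, *Hsd17b4* at 66.9 ± 4.97 TPM and *Hsd17b11* at 64.1 ± 18.0 TPM. *Srd5a1* (18.5 ± 5.03 TPM) and *Hsd17b2* (1.41 ± 0.494 TPM) were lowest. Neighbours in this order overlapped over the WT libraries except *Hsd17b12* and *Hsd17b10*, *Hsd17b11* and *Srd5a1*, and *Srd5a1* and *Hsd17b2*. In KO stroma *Hsd17b12* came first (141 TPM) and *Hsd17b1* second (135 TPM), and *Hsd17b7* had rank 5 (88.2 TPM). KO libraries of *Hsd17b12* (133 to 148 TPM) overlapped those of *Hsd17b1* (111 to 174 TPM). Those of *Hsd17b7* (69.4 to 125 TPM) overlapped those of *Akr1c18* at rank 4 (50.7 to 158 TPM). *Hsd17b7* supplied 19.9% of the members' summed TPM in WT and 11.2% in KO, and *Hsd17b1* 12.6% and 17.3%.

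**Figure D4:**
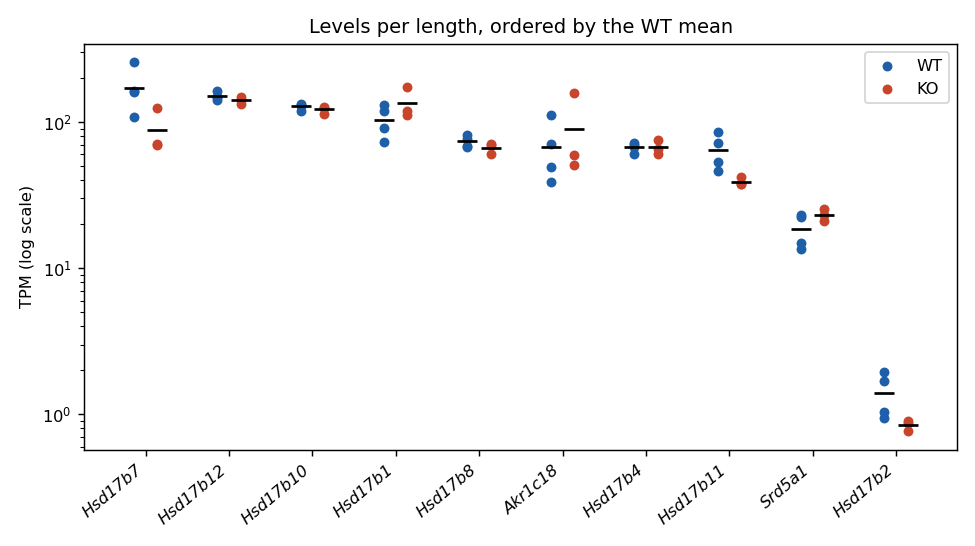
TPM on a log scale of the 10 genes in WT (blue) and KO (red) libraries, 1 point per library with the group mean as a line, ordered by the WT mean. *Hsd17b7* leads in WT at a mean of 171 TPM and *Hsd17b2* is lowest at 1.41 TPM.

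The pathways in which the members act were read from 9 lists. None of the 96 listed genes tested was called by edgeR or DESeq2 with the fold-change threshold. In DESeq2, 4 of them had an adjusted p under 0.05 with a smaller fold change. Over all 19233 genes tested, 250 had an adjusted p no higher than 0.05 in DESeq2, at any fold change. The 4 listed genes were *Tm7sf2* (0.000306), *Mgll* (0.00554), *Hacd2* (0.0214) and *Cyp1b1* (0.0438). Only *Tm7sf2* stayed under 0.05 in all 7 DESeq2 fits that left out 1 library. Over all genes tested, 5.1% were lower in KO at an unadjusted p under 0.05 in edgeR, the share to set beside the counts of each list. In cholesterol synthesis, where *Hsd17b7* acts, 19 of 20 genes had a log2 fold change below 0, 14 of them at an unadjusted p under 0.05. The median was -0.38 beside 0.0 for all genes. *Tm7sf2*, a sterol reductase, stood at -0.43 (SE 0.0711, edgeR adjusted p = 0.141) and *Cyp51*, a sterol demethylase, at -0.41 (SE 0.116, adjusted p = 0.344). Pearson's r of *Hsd17b7* with the mean of this list was 0.93 over 7 libraries. Relative to the mean of this list, *Hsd17b7* stood at 1.01, 1.26, 1.39 and 1.58 in WT1 to WT4 and 0.33, 0.51 and 0.98 in KO2 to KO4 on the log2 scale. Every KO library was below every WT library, though KO4 lay just under WT1. The difference was -0.7 (-0.89 to -0.57 with 1 library left out), with an exact permutation p of 0.0286 and an adjusted p of 0.229 over the 24 comparisons.

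In very long chain fatty acid elongation, where *Hsd17b12* acts, 11 of 11 genes tested were below 0, 6 at an unadjusted p under 0.05, with a median of -0.2. Relative to the mean of this list, *Hsd17b12* differed between KO and WT by 0.06 on the log2 scale, with overlap between genotypes (exact permutation p = 0.429). *Hacd2* (-0.31), *Hacd1* (-0.3) and *Hacd4* (-0.32), all dehydratases of the elongation cycle, had the lowest p, and their edgeR adjusted p lay between 0.237 and 0.489. In steroid synthesis and clearance, 12 of 17 genes were below 0, 3 of them at an unadjusted p under 0.05, with a median of -0.12. These 3 were *Cyp1b1* (-0.31, edgeR adjusted p = 0.314), which hydroxylates estradiol, *Hsd11b1* (-0.56, adjusted p = 0.489), which regenerates active glucocorticoid, and *Star* (-0.51, adjusted p = 0.529), which brings cholesterol into mitochondria.

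Among lipid droplet proteins, listed as those that share the location of *Hsd17b11*, 9 of 17 genes were below 0 and 8 above it. At an unadjusted p under 0.05 in edgeR, 4 were lower in KO and 0 higher. The list median was -0.02, close to that of all genes. Relative to the mean of this list, the *Hsd17b11* difference was -0.56 on the log2 scale, without overlap (exact permutation p = 0.0857, or 0.343 after adjustment over the 24 comparisons). The perilipins *Plin4* (-1.64, SE 0.441, edgeR adjusted p = 0.318) and *Plin5* (-1.51, SE 0.451, adjusted p = 0.36) lay far below the rest of the list, and *Mgll*, a monoacylglycerol lipase, stood at -0.27 (SE 0.053, adjusted p = 0.19). *Plin5* had no overlap between genotypes and *Plin4* did. In mitochondrial RNase P and isoleucine breakdown, where *Hsd17b10* acts, 5 of 8 genes were below 0, 4 at an unadjusted p under 0.05. These 4 were *Dbt* (-0.27), *Echs1* (-0.16), *Acadsb* (-0.19) and, outside the naming rule, *Acat1* (-0.2). In peroxisomal beta-oxidation 8 of 11 genes were below 0 and 0 had an unadjusted p under 0.05 (median -0.03), and in mitochondrial fatty acid synthesis 5 of 6 were below 0, also with 0 (median -0.07). Relative to the peroxisomal list, *Hsd17b4* differed by -0.01 on the log2 scale, with overlap between genotypes. Of other genes of the family, 3 of 6 were tested (median 0.05), as were 3 of 8 *Akr1c* genes (median 0.02), and 0 of either list had an unadjusted p under 0.05.

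**Figure D5:**
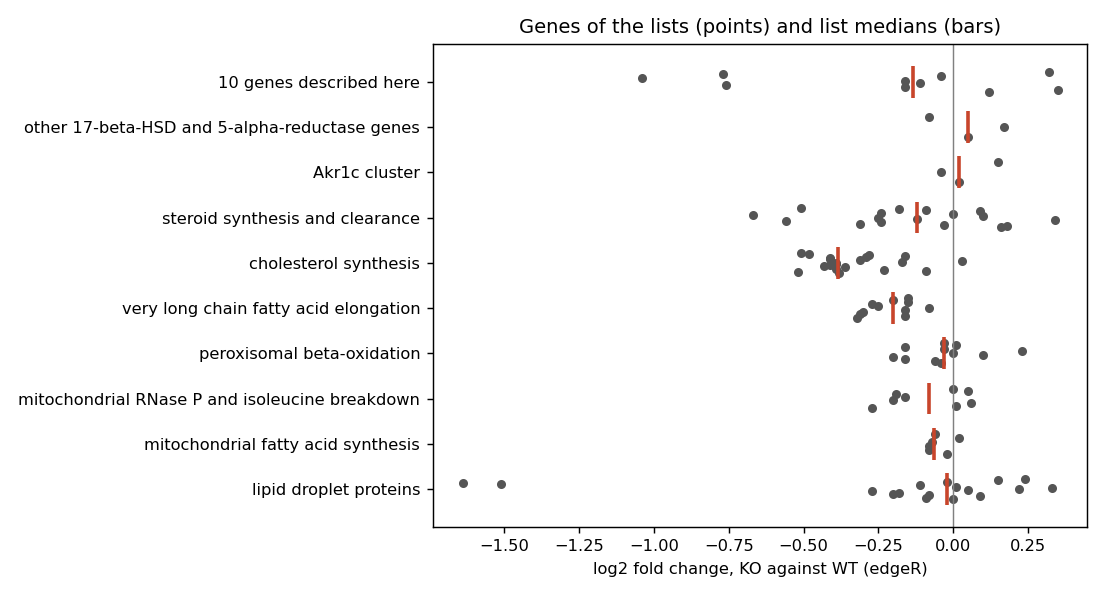
Log2 fold change of KO against WT for each gene tested in the 9 lists and for the 10 genes described here (points), with the median of each list as a red bar. The cholesterol list lies lowest as a whole (median -0.38), and the 2 lowest points are *Plin4* (-1.64) and *Plin5* (-1.51).

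Likeness was measured by Pearson's r of log2 CPM over the 7 libraries, for the 5 members whose highest library was at least 2 times their lowest. Both genes of a pair come from the same dissection and depth in each library. *Hsd17b11* was most like *Sytl2* (r = 0.993), *Wbp1l* (0.989), *Snx1* (0.989), *Cxcr4* (0.989) and *Rad23b* (0.984). *Hsd17b7* was most like *Samd9l* (0.991), *Ivd* (0.989), *Gopc* (0.988), *Rasgrp3* (0.987) and *Gm36684* (0.986), and *Hsd17b1* most like *Alg6* (0.99), *Enc1* (0.989), *Nap1l5* (0.979), *Lrp1* (0.979) and *Naa35* (0.975). *Hsd17b2* was most like *Rab21* (0.987), *Wdr1* (0.983), *Itgb1bp1* (0.981), *Gbp2* (0.972) and *Trim9* (0.971), and *Akr1c18* most like *Ankhd1* (0.998), *Asxl2* (0.992), *Mturn* (0.988), *Bptf* (0.987) and *Kansl1* (0.986). These genes were picked as the highest of 10417 searched, and no p is given. Within the family, *Hsd17b11* and *Hsd17b2* had an r of 0.96 (0.92 after subtracting each genotype's mean) and *Hsd17b11* and *Hsd17b7* 0.92 (0.74). *Hsd17b1* and *Hsd17b11* ran opposite, with an r of -0.8.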

How the data were processed

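RNA-seq of granulosa cell-depleted ovarian stroma was analysed in 4 WT and 3 KO libraries, grouped by the sample labels. The authors deposited Salmon expected counts (estimated read pairs per transcript), made from stranded, paired-end 100 bp mRNA libraries with the GENCODE M26 mouse transcriptome on GRCm39. The Salmon version and strand setting are not given in the sources used here. The deposited TPM values, scaled by the authors' Salmon run to length and library total, served for levels and transcript shares only.

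Expected counts were summed per gene with GENCODE M39 on GRCm39, which matched 137570 of 139225 transcripts (98.8%), and rounded. KO was compared with WT by edgeR 4.0.16 in R 4.3.3 (TMM, filterByExpr, glmQLFTest, two-sided, Benjamini-Hochberg over 19233 genes). The common biological coefficient of variation was 0.127, so counting error is small beside the differences between pools except for rare transcripts. Two-sided exact permutation tests over 35 splits served single genes and shares. Code was tested on simulated data. Alternatives were DESeq2 1.42.0, RLE normalisation, limma-voom (limma 3.58.1), 10 or more counts in every library, no filter, length offsets, a replicate block, a granulosa marker covariate, no fold-change threshold, and leaving out each library. DESeq2 without each library was added after seeing the data.

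The members and lists were chosen with earlier results of these data known. The text names *Pgr*, the members, up to 3 genes per list with the lowest p and any called, and the 5 genes most like each member that varied at least 2 times between libraries. *Tcf23* and *Sorl1* were named after their values were seen, and 1 gene that the rule names is not reported here. Upstream sequence and motif matches were read from GRCm39. A KO library numbered 1 was not analysed here.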

Additional observations from a re-analysis of the deposited data

How the results depend on the processing

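The number of genes called between KO and WT was 2 in edgeR. It was 145 in DESeq2, 36 with no filter, 6 with at least 10 counts in every library, 5 with the granulosa marker mean as a covariate, 26 with the replicate block, and 196 with DESeq2, length offsets and the block together, while RLE normalisation, limma-voom, length offsets and no fold-change threshold gave 2. Leaving out 1 library gave 1 to 4 genes in edgeR (1 without WT3 or KO2 and 4 without WT4) and 63 to 235 in DESeq2 (203, 113, 101 and 160 without WT1 to WT4, and 63, 99 and 235 without KO2 to KO4). Members called were 0 in edgeR and 1 in DESeq2 (*Hsd17b11*), 1 with the replicate block (*Hsd17b7*, log2 fold change -1.18, adjusted p = 0.00767), 2 with DESeq2, length offsets and the block (both genes), and 1 to 2 in DESeq2 without 1 library. No KO library numbered 1 was analysed, so with the block WT1 added nothing to the difference between KO and WT. Leaving out WT1 without the block gave *Hsd17b7* a log2 fold change of -1.17 in edgeR, with an adjusted p of 0.157. The cause of the differences between settings was not tested. Same-numbered libraries had correlations of their deviations of -0.013, 0.106 and 0.085 for numbers 2, 3 and 4, WT2 correlated best with KO4 (0.068), WT3 with KO3 (0.106) and WT4 with KO4 (0.085). Neither labels nor methods name a pairing, and whether same-numbered pools shared a batch was not tested. With 0 members called in edgeR, no alternative value could lose the threshold. Over 230 alternative values of single members, 213 kept their direction and side of the threshold, 13 passed it and 4 reversed. Those 4 were *Akr1c18* without KO4 (-0.28 in edgeR, -0.29 in DESeq2) and *Hsd17b4* without KO2 (0.01 and 0.02), and leaving out each library in turn gave -0.28 to 0.68 and -0.09 to 0.01 in edgeR. With 4 and 3 pools of 3 mice, the 95% intervals of *Hsd17b1*, *Akr1c18* and *Srd5a1* include changes of either direction, and depth limits *Hsd17b2*, which had 28 to 92 reads per library.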

Other observations

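The window upstream of *Hsd17b7* also holds the first exons of 3110045C21Rik, a long non-coding RNA gene on the opposite strand. It read 0.423, 0.874, 0.816 and 1.16 CPM in WT1 to WT4 and 0.573, 0.646 and 0.518 CPM in KO2 to KO4, so the genotypes overlapped. Its log2 fold change was -0.51 (SE 0.313), with an edgeR adjusted p of 0.685, and its r with *Hsd17b7* over the 7 libraries was 0.69. It was named after its values were seen.

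The libraries with most *Akr1c18*, KO4 and WT2, were those with the largest share of reads in transcripts over 5000 bases, 22.9% and 22.4%, where the other 5 libraries held 20.5% to 21.9%. Other library measures did not set KO4 and WT2 apart together. The share of reads in mitochondrial genes, for example, was 4.32% in KO4, 5.25% in WT2 and 4.44% to 7.13% in the other 5 libraries. A link to the *Akr1c18* level was not tested. Oocyte markers summed to 216 to 307 TPM in WT and 274 to 385 TPM in KO, and all 7 had a log2 fold change above 0. At an unadjusted p under 0.05 in edgeR, 2 of them were higher in KO, as were 739 of all 19233 genes tested. Relative to the mean of the theca cell markers, *Hsd17b1* was higher in KO by 0.64 and *Srd5a1* by 0.45 on the log2 scale, with no overlap between genotypes for either. The theca mean itself was lower in KO by 0.29 (difference -0.29), and it is the denominator of both values. The exact permutation p was 0.0286 for each, the smallest possible, and 0.229 after adjustment over 24 comparisons.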
